A study of Mus musculus with 27 samples.

Results

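The 7 genes *Dbp*, *Tef*, *Hlf*, *Nfil3*, *Nr1d1*, *Nr1d2* and *Rora* encode transcription factors of the circadian clock's output and stabilizing loops. They were taken by Ensembl identifier from the 46078 gene rows of the ileal count tables, and all 7 were among the 16741 genes that passed the filter on low counts. They were picked because counts of these same mice had already shown clock genes moving with dose, so their levels and fold changes are given as a description, with no p-value.

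RNA-Seq was performed on epithelium scraped from the distal ileum of male C57BL/6 mice killed at postnatal day 56. They had received sesame oil vehicle or TCDD (the dioxin 2,3,7,8-tetrachlorodibenzo-*p*-dioxin), which is a persistent agonist of the aryl hydrocarbon receptor (AhR), by gavage at intervals of 4 days over 28 days. There were 9 groups of 3 mice, namely vehicle and TCDD at 0.01 and 0.03, at 0.1 and 0.3, at 1 and 3, and at 10 and 30 µg/kg. All animals were wild type, were kept on a 12-hour light and dark cycle and were fasted before they were killed; the hour at which each mouse was killed is not given in the sources used here, so hour and dose cannot be told apart.

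In the circadian clock, the activators BMAL1 (encoded by *Arntl*) and CLOCK or NPAS2 bind E-boxes and drive their own repressors, the PER and CRY proteins, together with a layer of output regulators. The proline and acidic amino acid-rich (PAR) bZip factors DBP, TEF and HLF activate genes that carry a D-box, and NFIL3 represses through the same element. The nuclear receptors REV-ERBα (*Nr1d1*) and REV-ERBβ (*Nr1d2*) repress, and RORα (*Rora*) activates, genes with a ROR response element (RORE), *Arntl* and *Nfil3* among them. These factors cycle over the day in liver and gut and carry the clock signal to genes of xenobiotic, lipid and glucose metabolism.

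Promoter letters are shown because 5 of the 7 genes were called higher and 1 lower at 30 µg/kg. Of all genes tested 5.42% were called higher and 3.98% lower there. The 7 genes were chosen on these contrasts, so nothing is read from the difference. All 7 genes matched RefSeq promoter windows (GRCm38.p6, 250 bases before to 50 bases after an annotated start), with 8 windows in total because *Tef* has starts at 2 positions. Each motif was searched on both strands. Capitals mark the E-box CACGTG in both *Tef* windows, the E-box variant CACGTT (read here as its complement) in *Nr1d1*, the RORE TAGGTCA or TGGGTCA in *Nfil3* and *Arntl*, the D-box TTATGTAA or TTACGTAA in *Per3*, and the AhR response element core GCGTG (read as its complement) in *Dbp*. All runs are written 5′ to 3′ on the strand of the gene.

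*Tef*, upstream start, chr15:81802534-81802563, + strand: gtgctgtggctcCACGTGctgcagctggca

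*Tef*, downstream start, chr15:81811249-81811308, + strand: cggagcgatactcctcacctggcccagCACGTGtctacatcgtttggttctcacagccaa

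*Nr1d1*, chr11:98775373-98775432, − strand: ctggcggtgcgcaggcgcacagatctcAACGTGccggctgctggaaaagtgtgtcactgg

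*Nfil3*, chr13:52981033-52981062, − strand: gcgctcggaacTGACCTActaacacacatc

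*Arntl*, chr7:113207530-113207559, + strand: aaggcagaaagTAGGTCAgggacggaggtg

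*Per3*, chr4:151044801-151044885, − strand: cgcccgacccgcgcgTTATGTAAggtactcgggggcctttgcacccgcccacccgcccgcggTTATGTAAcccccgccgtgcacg

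*Dbp*, chr7:45705027-45705086, + strand: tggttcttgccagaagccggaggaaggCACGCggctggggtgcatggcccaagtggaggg

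The *Tef* E-boxes began 127 and 138 bases before their starts, and 7.15% of all 32851 windows held this motif. The variant in *Nr1d1* began 28 bases before the start and was in 4.68% of windows. The *Nfil3* RORE began 12 bases before the start, the *Arntl* RORE lay 31 bases after its start, and 6.45% of windows held either form. The pair of D-boxes in *Per3* began 205 and 158 bases before the start, against 1.06% of windows with a D-box, and no window of the 7 genes held these letters. The 5-letter core GCGTG was in 6 of the 8 windows and in 32.4% of all windows. Distances are to RefSeq starts. In the GENCODE M21 annotation all 30 bases shown for the upstream *Tef* start, for *Nfil3* and for *Arntl* lie in an exon. The motifs marked in them are thus in transcribed bases by that annotation. *Per3* and *Arntl* are not among the 7 genes. They come from 34 other genes linked to these factors, of which 24 had a window. Of those 24, 2 held a D-box (*Per3* and *G6pc*) and 2 a RORE (*Arntl* and *G6pc*). The *G6pc* window is not shown, and the fold change of *G6pc*, given below, changed sign between doses. No window of the PAR bZip targets named below held a D-box. Nothing is read from motif and direction together. A match describes these letters in these windows only.

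Each library held 12.26 to 17.14 M counts on genes. *Cyp1a1*, the cytochrome P450 that AhR agonists induce, checked the labels: its count was 0 to 14 in the 15 mice from vehicle to 0.3 µg/kg, 59 to 103 at 1 µg/kg, 180 to 925 at 3 µg/kg, 6587 to 8395 at 10 µg/kg, and between 14821 and 27996 at 30 µg/kg. Taken in the order in which the samples are listed, library indexes appeared a first time in 16 mice and a second time in 11. The order in which libraries were made or sequenced is not given in the sources used here. The first use covered vehicle to 0.3 µg/kg and mouse 41 of the 1 µg/kg group, and the second covered mice 43 and 44 of that group and all mice at 3, 10 and 30 µg/kg. Index use and dose therefore cannot be told apart except within the 1 µg/kg group. Levels are given as CPM, a gene's count scaled to the mouse's total count on the genes that passed the filter, adjusted by edgeR's TMM normalization factor. Each log2 fold change (± SE) comes from an edgeR fit of all 27 mice, unless a mouse is said to be left out. The fit itself gives no SE. The SE was derived as the size of the log2 fold change divided by the square root of its quasi-likelihood F statistic.

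Mouse 14, at 0.01 µg/kg, stood apart from its group. For 6 of the 7 genes it lay outside the range of the other 11 mice at vehicle to 0.1 µg/kg, where each of those 11 mice lay outside for 0 to 4 genes. Over all genes tested it lay outside for 19.5%, against 11.1 to 26.9% for the others. Its count of *Cyp1a1* was 0, and the AhR targets *Cyp1b1* (2.78 CPM) and *Ahrr* (3.59 CPM) were within the range of the other 11. For all 7 genes mouse 14 was within the range of the mice at 1 to 30 µg/kg, as the blue point labelled 14 shows in the plot of CPM by mouse.

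**Figure D1:**
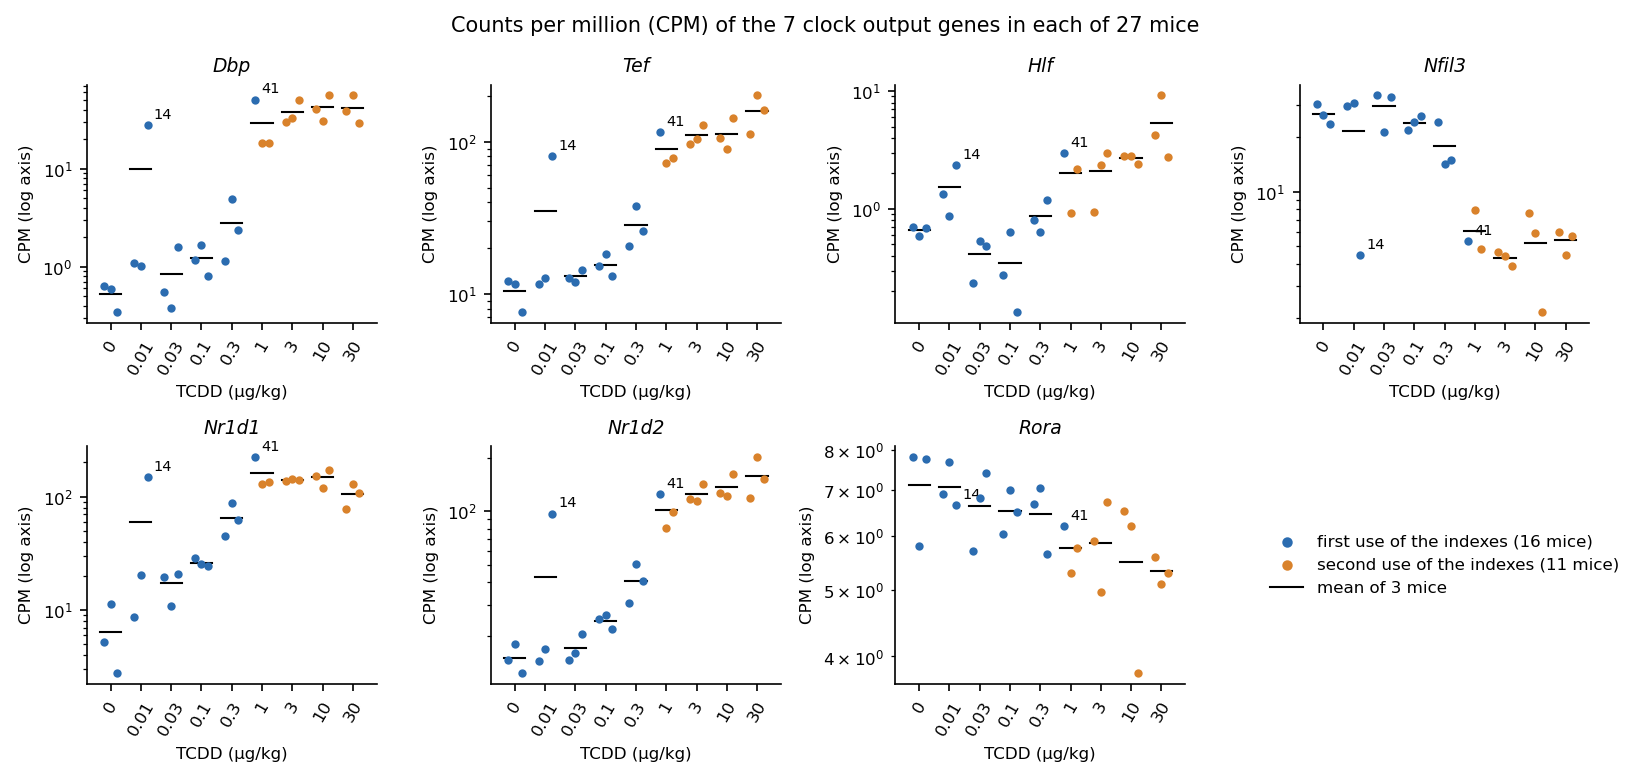
CPM (log axis) of the 7 genes in each mouse against TCDD dose (µg/kg, 0 is vehicle), with a line at the mean of 3 mice and colours for the first (16 mice) and second (11 mice) use of the library indexes. *Dbp* is at 0.346 to 0.634 CPM in vehicle mice and at 18.2 to 55.8 CPM from 1 µg/kg, *Nfil3* moves the other way, and mouse 14 at 0.01 µg/kg sits with the high doses for 6 genes, while the levels of *Rora* overlap between nearly all doses.

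*Dbp* (ENSMUSG00000059824, chr7:45705088-45710203, + strand, GRCm38) encodes D-box binding protein, a PAR bZip activator that is among the most strongly cycling transcripts of mouse tissues. Vehicle mice had 0.634, 0.587 and 0.346 CPM, or 5 to 9 counts. *Dbp* was at 0.547, 0.382 and 1.59 CPM after 0.03 µg/kg, and after 0.1 µg/kg it was at 1.18, 1.67 and 0.804 CPM. The 0.03 µg/kg mice overlapped vehicle and the 0.1 µg/kg mice did not. At 0.3 µg/kg *Dbp* was at 1.15, 4.94 and 2.34 CPM, all above vehicle.

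From 1 µg/kg *Dbp* stood at another level. Mice 41, 43 and 44 at 1 µg/kg had 50.6, 18.3 and 18.2 CPM. At 3 µg/kg the values were 30.2, 32.5 and 50.4 CPM, at 10 µg/kg 40.2, 30.4 and 55.8 CPM, and at 30 µg/kg 39.0, 55.8 and 29.5 CPM. No mouse at these 4 doses came near the 4.94 CPM that was highest at 0.3 µg/kg, and the 4 doses overlapped each other. The log2 fold change against vehicle was 2.40 ± 1.2 at 0.3 µg/kg, 5.78 ± 0.98 at 1 µg/kg, 6.16 ± 0.98 at 3 µg/kg, 6.31 ± 0.98 at 10 µg/kg and 6.29 ± 0.98 at 30 µg/kg, a 78.4-fold higher fitted level at the top dose over a vehicle level of few counts.

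At 0.01 µg/kg mice 9 and 11 had 1.08 and 1.01 CPM of *Dbp* and mouse 14 had 27.6 CPM. The log2 fold change at this dose was 4.26 ± 1.04 with mouse 14 and 0.98 ± 0.95 without it. In *Dbp*, 539 exon bases (18.0%) lie opposite exons of *Sphk2*, and it is not given in the sources used here whether reads were counted by strand.

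*Tef* (ENSMUSG00000022389, chr15:81802421-81826863, + strand) encodes thyrotroph embryonic factor, a PAR bZip activator with broader expression. Vehicle mice had 12.2, 11.6 and 7.61 CPM, and 0.03 µg/kg gave 12.8, 12 and 14.4 CPM. *Tef* was at 15.2, 18.4 and 13.1 CPM for 0.1 µg/kg, and 0.3 µg/kg gave 20.7, 37.9 and 26.0 CPM. Both of these groups lay wholly above vehicle, and the 0.3 µg/kg mice lay above all mice at 0.1 µg/kg.

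*Tef* reached 116, 72.7 and 78.7 CPM at 1 µg/kg in mice 41, 43 and 44. It was at 97.3, 105 and 128 CPM at 3 µg/kg, at 106, 89.0 and 144 CPM at 10 µg/kg, and at 112, 202 and 161 CPM at 30 µg/kg. Each of these 12 mice was above every mouse of the lower doses except mouse 14, at 80.2 CPM. The log2 fold change was 1.43 ± 0.48 at 0.3 µg/kg, 3.09 ± 0.49 at 1 µg/kg, 3.40 ± 0.49 at 3 µg/kg, 3.43 ± 0.49 at 10 µg/kg and 3.92 ± 0.50 (15.1-fold) at 30 µg/kg. At 0.01 µg/kg it was 1.75 ± 0.48 with mouse 14 and 0.20 ± 0.30 without it, the other 2 mice being at 11.5 and 12.7 CPM.

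*Hlf* (ENSMUSG00000003949, chr11:90336536-90390895, − strand) encodes hepatic leukemia factor, the third PAR bZip activator, and was scarce in vehicle ileum, as was *Dbp*. Vehicle mice had 0.704, 0.587 and 0.692 CPM, 8 to 10 counts each. All 3 mice of the 0.03 µg/kg group were lower, at 0.234, 0.535 and 0.483 CPM, and those of the 0.1 µg/kg group were at 0.277, 0.636 and 0.134 CPM. With 2 to 8 counts per mouse in these groups, the log2 fold changes of -0.64 ± 0.66 and -0.95 ± 0.68 were under 1.5 SE. At 0.3 µg/kg the values were 0.804, 0.634 and 1.2 CPM and overlapped vehicle.

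*Hlf* was at 2.98, 0.921 and 2.2 CPM at 1 µg/kg and at 0.943, 2.38 and 2.97 CPM at 3 µg/kg. It was at 2.82, 2.84 and 2.39 CPM at 10 µg/kg and at 4.23, 9.20 and 2.77 CPM at 30 µg/kg. All 4 groups lay above vehicle. The 10 µg/kg mean was 2.68 ± 0.254 CPM (SD, n = 3) and the 30 µg/kg mean 5.40 ± 3.37 CPM, where mouse 67, at 9.20 CPM, set both the mean and its spread. On the log2 scale *Hlf* differed from vehicle by 1.63 ± 0.53 at 1 µg/kg, 1.67 ± 0.53 at 3 µg/kg, 2.01 ± 0.53 at 10 µg/kg and 3.01 ± 0.51 (8.07-fold) at 30 µg/kg. At 0.01 µg/kg the mice had 1.33, 0.868 and, in mouse 14, 2.37 CPM, with a log2 fold change of 1.2 ± 0.55 and, without mouse 14, 0.70 ± 0.61.

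*Nfil3* (ENSMUSG00000056749, chr13:52967209-52981073, − strand) encodes the repressor that competes with the PAR bZip factors at D-boxes and was the one member called lower. Vehicle mice had 30.5, 26.5 and 23.7 CPM. The level was 34.1, 21.4 and 33.4 CPM at 0.03 µg/kg, and it was 21.8, 24.3 and 26.1 CPM at 0.1 µg/kg. Both groups overlapped vehicle. At 0.3 µg/kg mouse 33 had 24.3 CPM, inside the vehicle range, and mice 35 and 36 had 14.2 and 15 CPM, below it.

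*Nfil3* was at 5.34, 7.91 and 4.83 CPM at 1 µg/kg and at 4.64, 4.41 and 3.88 CPM at 3 µg/kg. It was at 7.61, 5.87 and 2.16 CPM at 10 µg/kg and at 5.94, 4.49 and 5.70 CPM at 30 µg/kg. No mouse of these 4 doses reached the 14.2 CPM that was lowest at 0.3 µg/kg. Its log2 fold change was -0.59 ± 0.40 at 0.3 µg/kg, -2.17 ± 0.44 at 1 µg/kg, -2.64 ± 0.46 at 3 µg/kg, -2.36 ± 0.45 at 10 µg/kg and -2.32 ± 0.45 (4.99-fold lower) at 30 µg/kg. Mouse 14 had 4.47 CPM where mice 9 and 11 had 29.6 and 31.0 CPM, and the log2 fold change at 0.01 µg/kg was -0.32 ± 0.40 with it and 0.16 ± 0.28 without it.

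*Nr1d1* (ENSMUSG00000020889, chr11:98767932-98775333, − strand) encodes REV-ERBα, the heme-binding repressor of *Arntl*. Vehicle mice spread over 5.28, 11.4 and 2.77 CPM. The 0.03 µg/kg group, at 19.7, 10.9 and 20.9 CPM, overlapped vehicle. At 0.1 µg/kg the values were 28.7, 25.4 and 24.2 CPM, and at 0.3 µg/kg 44.8, 88.2 and 62.7 CPM. These 2 groups overlapped neither vehicle nor each other.

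*Nr1d1* was at 224 CPM in mouse 41 and 128 and 134 CPM in mice 43 and 44 at 1 µg/kg. It was at 138, 144 and 141 CPM at 3 µg/kg, at 152, 119 and 172 CPM at 10 µg/kg, and at 78.4, 129 and 107 CPM at 30 µg/kg. The highest dose did not give the highest level: mouse 65 at 30 µg/kg was below mouse 35 at 0.3 µg/kg, with 88.2 CPM. Over all genes mouse 65 was the least like its group. Its chi-square over degrees of freedom was 74.25 with mouse 67 and 45.5 with mouse 68, which had 18.82 between them. Mice 67 and 68 were also below every mouse at 3 µg/kg. For *Nr1d1* the log2 fold change was 1.42 ± 0.67 at 0.03 µg/kg, 2.02 ± 0.66 at 0.1 µg/kg, 3.34 ± 0.66 at 0.3 µg/kg, 4.65 ± 0.68 (25.2-fold) at 1 µg/kg, 4.45 ± 0.68 at 3 µg/kg, 4.52 ± 0.68 at 10 µg/kg and 4.02 ± 0.67 at 30 µg/kg. Mice 9, 11 and 14 at 0.01 µg/kg had 8.64, 20.3 and 149 CPM, giving 3.21 ± 0.66 and, without mouse 14, 1.17 ± 0.43. Exons of *Nr1d1* lie opposite those of *Thra* over 263 bases (8.55%).

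*Nr1d2* (ENSMUSG00000021775, chr14:18204054-18239127, − strand) encodes REV-ERBβ, the paralog of REV-ERBα. Its level was 14.7, 18.0 and 12.3 CPM in vehicle mice and 14.7, 16.1 and 20.4 CPM at 0.03 µg/kg, which overlapped. At 0.1 µg/kg the values were 24.8, 26.2 and 21.9 CPM and at 0.3 µg/kg 30.5, 50.8 and 40.4 CPM. As for *Nr1d1*, these 2 groups lay above vehicle and did not overlap each other.

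*Nr1d2* was at 125, 81 and 98.9 CPM at 1 µg/kg and at 117, 114 and 142 CPM at 3 µg/kg. It was at 126, 122 and 162 CPM at 10 µg/kg and at 118, 202 and 152 CPM at 30 µg/kg. It had a log2 fold change of 0.69 ± 0.45 at 0.1 µg/kg, 1.43 ± 0.44 at 0.3 µg/kg, 2.76 ± 0.45 at 1 µg/kg, 3.05 ± 0.45 at 3 µg/kg, 3.19 ± 0.46 at 10 µg/kg and 3.39 ± 0.46 (10.5-fold) at 30 µg/kg. At 0.01 µg/kg, 14.5, 16.9 and 97.2 CPM gave 1.52 ± 0.44, and 0.06 ± 0.25 without mouse 14.

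*Rora* (ENSMUSG00000032238, chr9:68653786-69388246, + strand) encodes RORα, the activator that shares its response element with the REV-ERBs. Vehicle mice had 7.81, 5.79 and 7.75 CPM. At 30 µg/kg 5.59, 5.10 and 5.29 CPM were measured, all below the vehicle range by a small margin. Over the other 7 doses every group overlapped vehicle, with a full range of 3.78 CPM at 10 µg/kg to 7.67 CPM at 0.01 µg/kg. Its log2 fold change ran from -0.42 ± 0.18 (1.34-fold lower) at 30 µg/kg to -0.01 ± 0.17 at 0.01 µg/kg, and 0.02 ± 0.19 there without mouse 14.

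**Figure D2:**
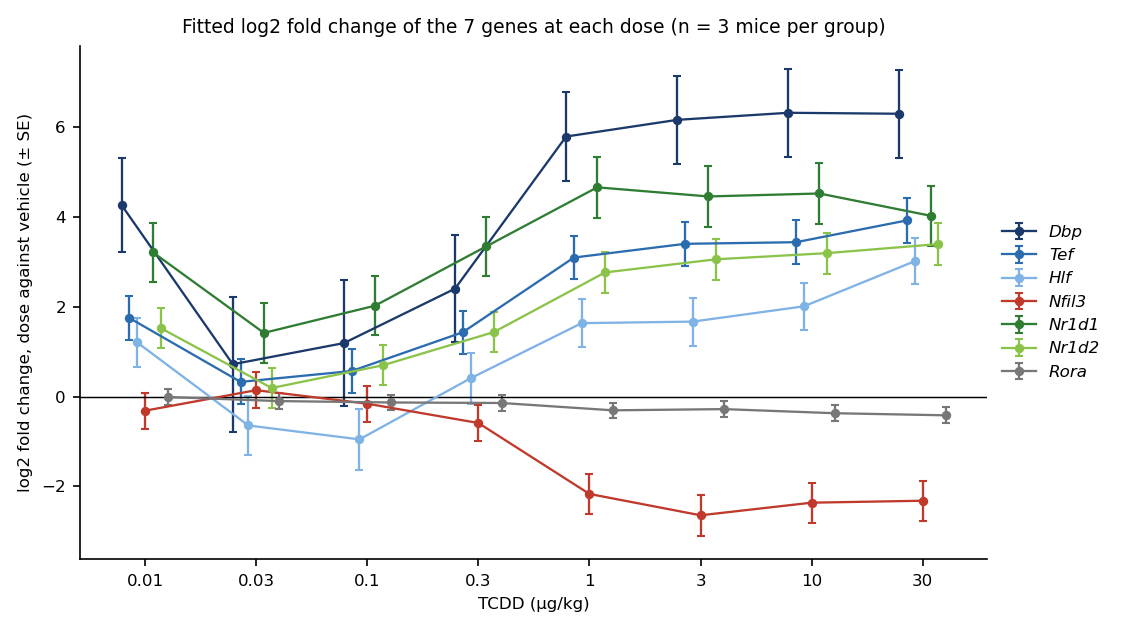
Fitted log2 fold change against vehicle (± SE, n = 3 mice per group) of the 7 genes at each TCDD dose (µg/kg). *Dbp* is at 5.78 to 6.31 from 1 µg/kg, *Nfil3* at -2.64 to -2.17 and *Rora* at -0.42 to -0.28, while the points at 0.01 µg/kg include mouse 14.

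A gene was called when its Benjamini-Hochberg adjusted p over the 16741 genes in edgeR's quasi-likelihood test was at most 0.05 and its fold change at least 1.5. At 1 and 3 µg/kg 5 of the 7 genes were called (*Dbp*, *Tef*, *Nr1d1*, *Nr1d2* higher and *Nfil3* lower), where 0.591% and 1.11% of all genes tested were called. *Hlf* joined them at 10 and 30 µg/kg, making 6 of 7 where 2.53% and 9.4% of all genes were called. Over all genes tested, calls of a higher level were 0.4%, 0.645%, 1.76% and 5.42% at 1, 3, 10 and 30 µg/kg, beside 4, 4, 5 and 5 of the 7 genes, and calls of a lower level were 0.191%, 0.46%, 0.771% and 3.98%, beside 1 of the 7. Since the genes were chosen on these contrasts, nothing is read from the difference. *Rora* was called at no dose.

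At 0.01, 0.03, 0.1 and 0.3 µg/kg edgeR called none of the 7 genes and 0.0% of all genes, with 5, 1, 1 and 3 of the 7 at an unadjusted p under 0.05. DESeq2 called *Dbp* and *Nr1d1* at 0.01 µg/kg and *Nr1d1* at 0.3 µg/kg, and none of the 7 at 0.03 and 0.1 µg/kg. Over all genes DESeq2 called 3, 0, 4 and 20 at the 4 lowest doses, and 699, 591, 1037 and 1247 had an unadjusted p under 0.05 in edgeR. Without mouse 14 in the fit, a choice made after its values were seen, *Nr1d1*, *Nr1d2* and *Tef* were called at 0.3 µg/kg. That mouse held much of the spread of these genes within groups: the SE of *Nr1d2* at 0.3 µg/kg was 0.44 with it and 0.21 without it.

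Groups that did not overlap vehicle numbered 2, 1, 4 and 4 of 7 genes at 0.01, 0.03, 0.1 and 0.3 µg/kg, where 11.2%, 10.0%, 13.7% and 16.6% of all genes tested did not overlap. At 1, 3 and 10 µg/kg they numbered 6 of 7, where 20.5%, 24.5% and 23.2% of all genes did not overlap, and at 30 µg/kg all 7, where it was 27.1%. The median log2 fold change of the 7 genes was 2.76 at 1 µg/kg and 3.39 at 30 µg/kg, and that of all genes tested was 0.00 and 0.02.

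Leaving out vehicle mouse 4, which had the lowest vehicle levels of *Dbp*, *Tef*, *Nr1d1* and *Nr1d2*, took the genes called at 1 µg/kg from 5 to 1, *Nr1d1*, and all genes called from 99 to 12. Without it the log2 fold changes of the genes that lost the call were 5.56 ± 1.17 for *Dbp*, 2.91 ± 0.57 for *Tef*, 2.64 ± 0.53 for *Nr1d2* and -2.25 ± 0.47 for *Nfil3*. *Nfil3* was also not called at 1 µg/kg on leaving out vehicle mouse 2, mouse 41 or mouse 44, and *Hlf* was not called at 10 µg/kg on leaving out any of the 6 mice compared. Without mouse 9, *Nr1d1* was called at 0.01 µg/kg, where mouse 14 was then 1 of 2 mice. With index use as a covariate, which only the 1 µg/kg group separates from dose, 4, 1, 4 and 5 of the 7 were called at 1, 3, 10 and 30 µg/kg, and 31, 6, 48 and 482 of all genes tested. At 3 µg/kg *Dbp* was called, and the log2 fold changes and SEs of 3 genes that lost the call were both larger than without the covariate, at 4.01 ± 0.78 for *Tef*, 5.22 ± 1.03 for *Nr1d1* and 3.52 ± 0.73 for *Nr1d2*. *Nfil3* was called at none of them in that fit, with log2 fold changes of -2.33 ± 0.69 at 1 µg/kg and -2.56 ± 0.86 at 30 µg/kg.

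Within the 1 µg/kg group the mouse of the first index use had the highest level of the 5 rising genes. *Dbp* was 50.6 CPM in mouse 41 against 18.3 and 18.2 CPM in mice 43 and 44 of the second use, and *Nr1d1* was 224 against 128 and 134 CPM. For *Nfil3*, mouse 41 with 5.34 CPM lay between the other 2 mice. Within the first index use alone, mouse 41 was above all 15 mice at vehicle to 0.3 µg/kg for each of *Dbp*, *Tef*, *Hlf*, *Nr1d1* and *Nr1d2*, and below all but mouse 14 for *Nfil3*.

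Within the second index use, 30 µg/kg was compared with 3 µg/kg. None of the 7 genes was called, where edgeR called 0.89% of all genes, and 1 of 7, *Hlf*, had an unadjusted p under 0.05; DESeq2 was not run on this comparison. The log2 difference (30 minus 3 µg/kg) was 1.35 ± 0.45 for *Hlf* (0.72 ± 0.45 without mouse 67), 0.52 ± 0.43 for *Tef*, 0.34 ± 0.40 for *Nr1d2*, 0.32 ± 0.49 for *Nfil3*, 0.14 ± 0.62 for *Dbp*, -0.14 ± 0.18 for *Rora* and -0.43 ± 0.56 for *Nr1d1*. Over the same pair of doses *Cyp1a1* rose by 5.26 ± 0.43 (edgeR adjusted p = 6.9e-08). All but *Hlf* differed by less than 1.5 SE, and *Cyp1a1* lay between 14.2 and 64.7 CPM at 3 µg/kg and between 1062 and 2279 CPM at 30 µg/kg. These SEs come from the fit that holds mouse 14, and the comparison was not refitted without it. For *Tef* at 30 µg/kg against vehicle the SE was 0.50 with mouse 14 and 0.26 without it. Differences under 1.5 SE therefore do not show that the levels were equal.

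**Figure D3:**
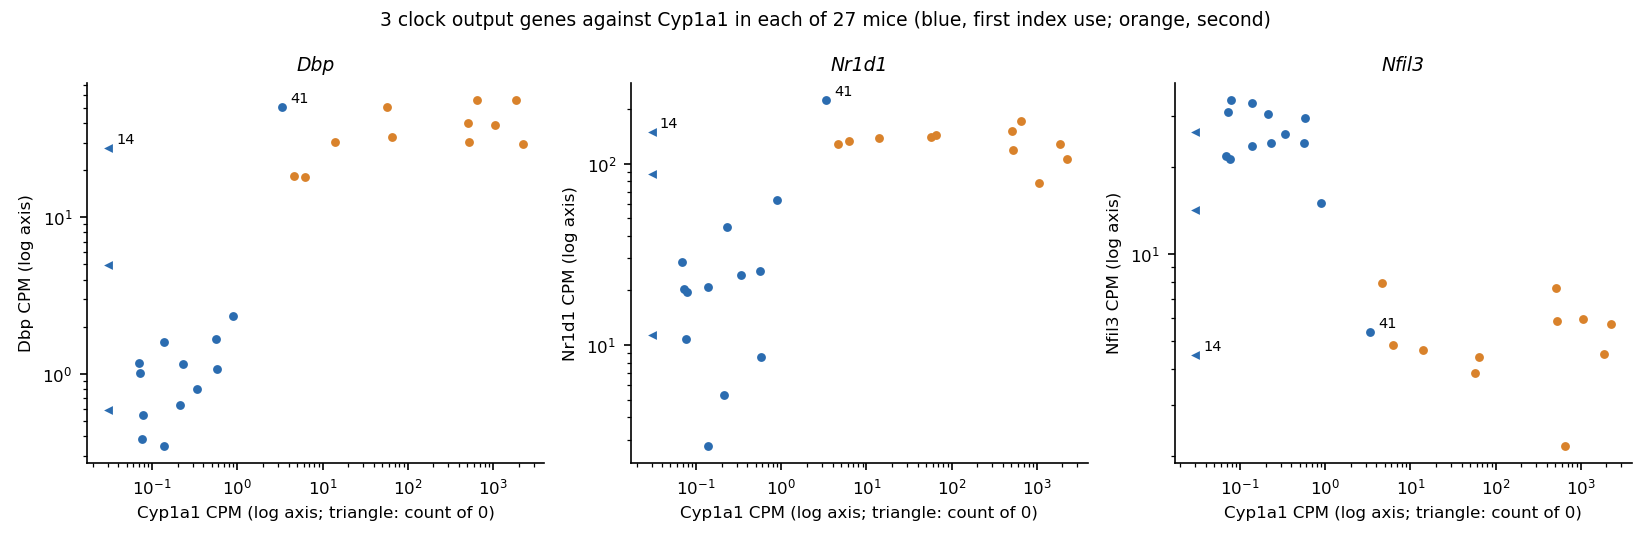
CPM of *Dbp*, *Nr1d1* and *Nfil3* against CPM of *Cyp1a1* in each of 27 mice (both axes log; blue, first index use; orange, second; triangles, a *Cyp1a1* count of 0 drawn at the left edge). Mouse 14 has no *Cyp1a1* count and 27.6 CPM of *Dbp*, and among the mice at 1 to 30 µg/kg *Cyp1a1* spans 3.32 to 2279 CPM while *Dbp* spans 18.2 to 55.8 CPM.

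Levels of different genes were compared per kb of exon. In vehicle ileum *Nfil3* led with 13.3 ± 1.69 CPM per kb (SD, n = 3), above *Nr1d2* with 2.77 ± 0.524, *Nr1d1* with 2.1 ± 1.44 and *Tef* with 1.33 ± 0.316 CPM per kb. *Rora* (0.545 ± 0.0878), *Dbp* (0.174 ± 0.0515) and *Hlf* (0.0989 ± 0.00965 CPM per kb) came last. *Nr1d1* overlapped both *Nr1d2* and *Tef*, and the other neighbours in this order did not overlap.

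At 30 µg/kg the order per kb had turned. *Nr1d1* led with 34 ± 8.26 CPM per kb, followed by *Nr1d2* with 29.1 ± 7.80, *Tef* with 20.1 ± 5.68 and *Dbp* with 13.8 ± 4.46 CPM per kb, each overlapping its neighbour. *Nfil3* came next with 2.65 ± 0.386 CPM per kb, below *Dbp* in every mouse. *Hlf* (0.808 ± 0.505) and *Rora* (0.408 ± 0.0186 CPM per kb) were lowest and overlapped.

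Across the 27 mice, Pearson's r of log2 CPM between pairs of the 5 rising genes was 0.65 to 0.99 with a median of 0.91. The closest pair was *Tef* and *Nr1d2* (r = 0.99), and *Hlf* and *Nr1d1* were the most distant. *Nfil3* had an r of -0.96 to -0.79 with the 5, -0.52 to -0.11 on deviations from the dose means without mouse 14, and -0.55 to -0.15 within the second index use. The values over 27 mice share dose and index use. On deviations from the dose means the median of the 10 pairs was 0.88, and without mouse 14 it was 0.65, with *Tef* and *Nr1d2* at 0.91. Within the 11 mice of the second index use *Tef* and *Nr1d2* were at 0.95, while *Nr1d1* was at -0.26 to 0.17 with the other 4 rising genes.

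Among 16647 other genes tested, *Epha1*, an ephrin receptor, had the highest r with *Dbp* (0.97), *Tef* (0.98) and *Nr1d2* (0.98), and the lowest with *Nfil3* (-0.95). *Arntl* had the lowest r with *Dbp* (-0.96), *Tef* (-0.97) and *Nr1d2* (-0.96). The second highest were *Palld*, an actin-associated protein, for *Dbp* (0.97), *Per3* for *Tef* (0.97) and *Ank3*, the membrane scaffold ankyrin-G, for *Nr1d2* (0.97). Within the 11 mice of the second index use, *Epha1* had an r of 0.77 to 0.85 with the 3 rising genes and -0.53 with *Nfil3*, and *Arntl* had an r of -0.88 to -0.80.

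*Nr1d1* had its second highest r with *Palld* (0.93) and its lowest with *Cry1* (-0.91). *Hlf* was most like the clock repressors *Ciart* and *Per3* (both 0.89) and least like *Pnp2*, a purine nucleoside phosphorylase (-0.91). *Nfil3* was most like *Ypel2* and *St5* (both 0.95). Within the second index use *Nr1d1* and *Cry1* had an r of -0.15, and *Nfil3* and *Ypel2* of 0.57. All are descriptions over 27 mice that share their doses.

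*Rora* stood apart from the other 6 here too. Its nearest genes were *Cd226*, a lymphocyte receptor (r = 0.82), and *Ighj2*, an immunoglobulin joining segment (0.77), and its lowest was *Tgfa*, a ligand of the EGF receptor (-0.81). Within the 16 mice of the first index use these were 0.79, 0.23 and -0.49, and within the 11 of the second 0.66, 0.84 and -0.83. The summed level of 5 immune markers (*Ptprc*, *Cd3e*, *Cd79a*, *Jchain*, *Cd74*) was in vehicle mice 1785 to 1999 CPM, and then 1312 to 1491 CPM at 10 µg/kg and 1101 to 1683 CPM at 30 µg/kg. Of these markers *Jchain* was called lower at 10 and 30 µg/kg and the other 4 were called at no dose. The part of immune cells in the level of *Rora* was not tested, and in bulk scrapings fewer cells of a type and less RNA per cell cannot be told apart.

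The 6 enterocyte markers summed to between 8387 and 9605 CPM in vehicle mice and between 6694 and 12223 CPM at 30 µg/kg, with *Slc10a2* called higher and *Fabp6* lower there, and villin (*Vil1*) had at least 30030 counts in every mouse. Smooth muscle markers (6 genes, none called at any dose) summed to between 25.0 and 110 CPM in vehicle mice, between 36.2 and 345 CPM at 30 µg/kg and to 170 CPM in mouse 14. At 10 µg/kg they summed to between 45.5 and 394 CPM, with a median log2 fold change of 2.03. All 6 had an unadjusted p under 0.05 in edgeR at that dose, as had 2905 of all genes tested. Stem and cycling markers (4 genes) summed to between 401 and 569 CPM in vehicle mice and between 208 and 452 CPM at 30 µg/kg, with *Lgr5* and *Top2a* called lower there. The 4 secretory markers summed to between 8612 and 10546 CPM in vehicle mice and between 10968 and 13516 CPM at 30 µg/kg, with *Chga* called higher. Of 4 enteric neuron and glia markers, 3 had at most 12 counts in any mouse. The part of these cell types in the levels of the 7 genes was not tested.

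Of 34 other genes linked to these factors, 33 passed the filter on low counts, and edgeR called 4 at 1 µg/kg, 9 at 3 µg/kg, 9 at 10 µg/kg and 19 at 30 µg/kg. Of all genes tested, 0.591%, 1.11%, 2.53% and 9.4% were called at these doses. The lists were set with earlier results of these counts known. Neither their direction nor the adjusted p-values printed for their genes are therefore independent evidence. With index use as a covariate the counts were 1, 1, 3 and 10. At 1 µg/kg leaving out any of the 6 mice but mouse 43 left 1 called, and at 3 µg/kg leaving out vehicle mouse 4 left 4 and leaving out mouse 52 left 3. The median log2 fold change of the 33 at 30 µg/kg was 0.97, against 0.02 over all genes tested.

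Of 8 clock repressors, 5 rose and 1 fell at 30 µg/kg, where 5.42% of all genes tested were called higher and 3.98% lower. *Per3*, a PER repressor, was between 5.35 and 6.64 CPM in vehicle mice and rose to between 86.2 and 127 CPM at 30 µg/kg (log2 fold change 4.09 ± 0.43, edgeR adjusted p = 1.7e-06). *Ciart*, a repressor of the BMAL1 complex, rose by 4.06 ± 0.59 (adjusted p = 6.3e-05), *Per2* by 2.74 ± 0.26 (4.6e-07), *Cry2* by 2.50 ± 0.28 (3.1e-06) and *Per1* by 1.70 ± 0.30 (0.00043).

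*Cry1* was the repressor that fell, by 1.17 on the log2 scale (SE 0.28, edgeR adjusted p = 0.0058). The REV-ERBs are known to repress *Cry1* through ROREs. Its promoter window here held 0 ROREs, but an E-box and the E-box variant. Why *Cry1* fell was not tested. It fell also at 1, 3 and 10 µg/kg, where its log2 fold change was -1.19 to -1.40. *Per2* and *Per3* were called higher from 1 µg/kg, *Ciart* and *Cry2* from 3 µg/kg and *Per1* from 10 µg/kg. *Bhlhe40* and *Bhlhe41* were called at no dose.

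Of the 3 clock activators, *Arntl* fell at each of the 4 highest doses. Vehicle mice ranged between 56.7 and 65.3 CPM, those at 1 µg/kg between 13.8 and 34.1 CPM and those at 30 µg/kg between 8.43 and 12.5 CPM (log2 fold change -2.60 ± 0.35, edgeR adjusted p = 2.2e-05). Mouse 14 had 15.7 CPM. *Npas2* was called lower from 3 µg/kg, and at 30 µg/kg its log2 fold change was -1.36 ± 0.29 (adjusted p = 0.0024). *Clock*, at 0.02 ± 0.11, was called at no dose.

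Genes known as targets of the PAR bZip factors were called at 30 µg/kg, where 5.42% of all genes tested were called higher and 6 of these 7 rose. They were *Slc15a1*, the intestinal peptide transporter (log2 fold change 1.75 ± 0.33, edgeR adjusted p = 0.00088), *Nr1i3*, the xenobiotic receptor CAR (1.55 ± 0.46, 0.021), and *Abcb1a*, the drug efflux pump (1.37 ± 0.28, 0.0014). *Por*, the P450 oxidoreductase (0.98 ± 0.20, 0.0014), *Ppara*, the fatty acid receptor (0.91 ± 0.12, 1.7e-05), and *Pdxk*, pyridoxal kinase (0.71 ± 0.17, 0.0056), followed. The remaining gene, *Alas1* of heme synthesis, was at -0.03 ± 0.11.

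At 1, 3 and 10 µg/kg, where *Dbp* and *Tef* were already called, edgeR called 0 of these 7 targets. Of all genes tested 0.591%, 1.11% and 2.53% were called there, so 0 of 7 tells little about the targets. At those doses 2, 4 and 4 of the targets had an unadjusted p under 0.05 in edgeR and DESeq2 called 0, 1 and 2. Over all genes 2356, 2289 and 2905 had such a p, and DESeq2 called 163, 275 and 502. *Ppara* passed the adjusted p at 3 and 10 µg/kg (edgeR adjusted p = 0.036 and 0.012), where its log2 fold changes of 0.48 and 0.53 were under the limit on fold change. Their median log2 fold change was 0.23 at 1 µg/kg, 0.56 at 3 µg/kg, 0.60 at 10 µg/kg and 0.98 at 30 µg/kg. Comparing 30 with 3 µg/kg, the median was 0.43. Values at the 4 doses share the vehicle mice.

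REV-ERB and ROR targets did not move one way. Of 8 tested, *Arntl*, *Npas2* and *Cry1* fell at 30 µg/kg, and *Pck1* and *G6pc*, the gluconeogenic enzymes, rose. Among all genes tested 3.98% were called lower and 5.42% higher at that dose. *Pck1* lay between 19.3 and 36.7 CPM in vehicle mice and between 107 and 374 CPM at 30 µg/kg (log2 fold change 3.31 ± 0.72, edgeR adjusted p = 0.0026) and was also called at 3 µg/kg. *G6pc* lay between 10.4 and 17.3 CPM in vehicle mice and between 4.51 and 115 CPM at 30 µg/kg, so the groups overlapped (2.25 ± 0.66, adjusted p = 0.020). At 1, 3 and 10 µg/kg its log2 fold change was -1.42, -0.95 and -2.39. *Cdkn1a* was not called.

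Among other clock outputs *Usp2*, a deubiquitinase, rose by 0.98 ± 0.16 (edgeR adjusted p = 0.00018) and was called from 3 µg/kg, and *Wee1*, a cell-cycle kinase, rose by 0.97 ± 0.23 (0.0051) at 30 µg/kg with mice that overlapped vehicle. *Nampt*, of NAD synthesis, was at 0.12 ± 0.12. Lipid genes known downstream of NFIL3 in gut epithelium (*Cd36*, *Scd1*, *Fabp4*) spread widely, with log2 fold changes of 1.09 to 1.35 and SEs of 0.71 to 1.12 at 30 µg/kg. EdgeR and DESeq2 called 0 of these 3 at any of the 4 doses from 1 µg/kg, and none had an unadjusted p under 0.05 in edgeR. Of all genes tested edgeR called 0.591%, 1.11%, 2.53% and 9.4% at these doses, and 2356, 2289, 2905 and 5230 had such a p. The 0 of 3 therefore tells little about these genes.

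Of the other RORs and the corepressors used by the REV-ERBs, *Rorb*, *Ncor1* and *Hdac3* were called at no dose. *Ncor1* at 405 to 494 CPM and *Hdac3* at 33.5 to 35.0 CPM at 30 µg/kg had log2 fold changes of -0.09 ± 0.10 and -0.13 ± 0.08.

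**Figure D4:**
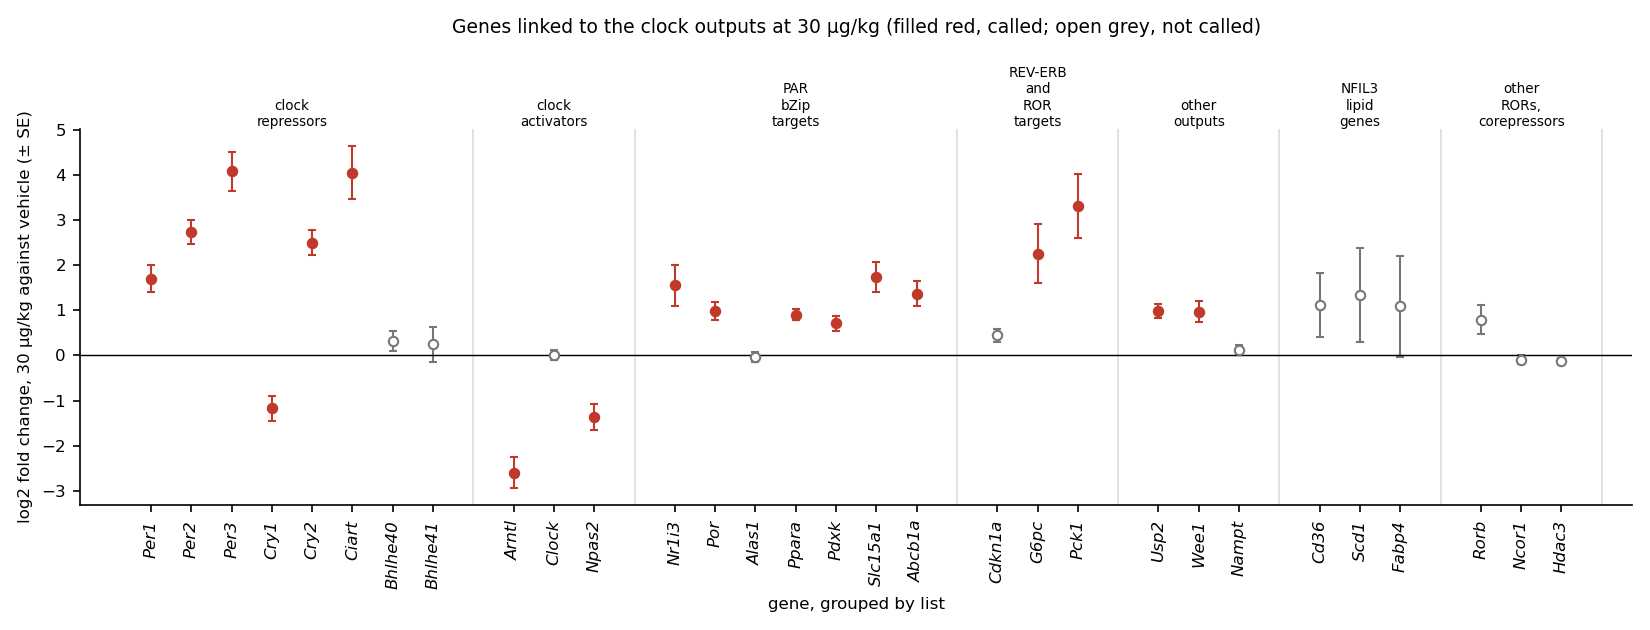
Log2 fold change at 30 µg/kg against vehicle (± SE, n = 3 mice per group) of 30 of the 33 tested genes linked to the clock outputs, each drawn once under the first list that holds it (filled red, called; open grey, not called). Of the genes drawn, 15 were called higher and 3 lower (16 and 3 over all 33), beside 5.42% and 3.98% of all genes tested. *Per3* at 4.09 is highest and *Arntl* at -2.60 lowest.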

How the data were processed

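The authors trimmed reads with Trimmomatic 0.33, aligned them to GRCm38 (release 81) with TopHat2 2.1.0 and deposited raw counts per Ensembl gene for each of 27 mice. HTSeq 0.6.1 is named in the submitters' processing notes, and its options are not given in the sources used here. The 5 rows that name no gene were left out; reads on no feature were 44.5 to 49.5% of uniquely placed reads. Genes were named from GENCODE M21 (45143 of 46078), and motifs were searched in RefSeq windows.

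Counts were analysed with edgeR 4.0.16 in R 4.3.3 (TMM, filterByExpr, quasi-likelihood fit of 9 groups, Benjamini-Hochberg adjustment within a dose, fold change of at least 1.5). Fold changes come from this fit. Correlations used log2 CPM with a prior count of 2. DESeq2 1.42.0 was an alternative. In data simulated for 30 µg/kg against vehicle over 16520 genes, 77 of 100 genes changed by 2-fold and 96 of 100 changed by 4-fold were recovered, with 8 false calls.

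Groups came from the labels. Replicates are separate mice. By the paper, mice of a treatment group were housed together in cages. The cage of each mouse is not given in the sources used here, so cage and dose cannot be told apart. No pair of one group agreed within sampling noise (chi-square over degrees of freedom 6.99 to 74.25 in 27 pairs). Index use was read from the library index of each deposited table; its meaning as a sequencing pool is not stated. The 7 genes and all lists were chosen with earlier results of these data known. Named genes were the 7 members, list genes called at any dose (others of a short list are named where a count of calls needs them), and for each member the 2 genes of highest and the 1 of lowest r. Some genes that this rule names are not reported here. Promoters were shown after the values were seen. Cell type markers were fixed lists.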

Additional observations from a re-analysis of the deposited data

How the results depend on the processing

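At 1 to 30 µg/kg no refit of a single member reversed its direction against vehicle. Of these refits 343 kept the same side of the limits and 21 lost the call, 7 of them *Hlf* at 10 µg/kg and 5 *Nfil3* at 1 µg/kg. Members called went from 0 to 2 at 0.01 µg/kg and from 0 to 1 at 0.3 µg/kg with no filter on low counts and with DESeq2, and to 3 at 0.3 µg/kg without mouse 14. With index use as a covariate 1 member was called at 3 µg/kg. Leaving out single mice gave between 0 and 1 members at 0.01 µg/kg and between 1 and 5 at 1 µg/kg.

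Clock and target genes called were 1, 1, 3 and 10 at 1, 3, 10 and 30 µg/kg with index use as a covariate, and 12 at 30 µg/kg with only the 6 mice compared. Leaving out single mice gave 1 to 3, 3 to 7, 8 to 11 and 14 to 20. All genes called were 99, 185, 423 and 1574. They were 151, 285, 636 and 2976 with no fold change limit, and 31, 6, 48 and 482 with index use as a covariate. With no filter they were 169 and 308 at 1 and 3 µg/kg, with DESeq2 163 at 1 µg/kg, and with only the 6 mice compared 344 at 3 and 667 at 30 µg/kg. Leaving out single mice gave 12 to 107, 67 to 225, 208 to 450 and 878 to 2508. The cause was not tested.

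For 30 against 3 µg/kg 47 refits kept the sign and 2 of *Dbp* changed sign (-0.01 without mouse 50 and -0.14 without mouse 67). Of the correlations recomputed 31 stayed within 0.1 and 11 moved by more, most of them within the 11 mice of the second index use. No paired analysis was run, because the groups are different mice and the labels name no pairs. Vehicle levels of *Dbp* and *Hlf* rest on 5 to 10 counts per mouse, which limits their fold changes.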
